A study of Homo sapiens with 8 samples.

Results

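Genes of the interferon response and of cytokine receptors that signal through Janus kinases (JAKs) were examined in 8 clones of LNCaP cells, a line grown from a human prostate tumor. A list of 45 gene symbols defined the set, and each gene was represented by the transcript cluster, the group of probes summarized as 1 value, that carried its symbol. Of these 45, 26 were measured, among 4072 genes with a symbol in the table used here, and the other 19 were not analysed here. Those 19 were *OAS1*, *OAS2*, *OAS3*, *IFI6*, *ISG20L2*, *ADAR*, *GBP1*, *GBP2*, *GBP6*, *GBP7*, *IFI16*, *PYHIN1*, *TRIM34*, *IFNG*, *IFNLR1*, *IL10RA*, *IL12RB2*, *IL22RA1* and *STAT2*. Every one of the 26 had a single cluster, and all 26 were tested with no filter on low signals. Total RNA from 4 isolates carrying a control vector (clones 3, 4, 8 and 9) and 4 over-expressing *HIST1H1A*, the gene of the linker histone H1.1 (clones 2, 8, 9 and 10), was read on Affymetrix Human Gene 2.0 ST arrays, 1 for each clone. All 8 clones had been transduced with lentivirus and selected with blasticidin, and each was isolated by serial dilution, so that differences between clones and differences in measurement cannot be told apart. In whole cultures, fewer cells expressing a gene and less RNA per cell cannot be told apart either. Signals are on the log2 scale throughout.

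Interferons bind receptors on the cell surface to which JAK1 and a second Janus kinase are attached. The kinases phosphorylate STAT factors, which join IRF9 in a complex named ISGF3, and ISGF3 binds a short DNA element, the interferon-stimulated response element (ISRE), at the promoters of antiviral genes. The response to interferon gamma uses another element, the gamma-activated site (GAS). In resting epithelial cells most antiviral genes of this kind are transcribed at a low level.

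The array medians lay between 3.246 and 3.297, and the median of all values was 3.27. Of 23 listed markers of luminal prostate cells, 5 were measured and all 5 fell, with a mean signal of 7.32 to 7.90 in control clones and 4.58 to 4.64 in *HIST1H1A* clones. Among them *FOLH1*, which encodes prostate-specific membrane antigen, went from a group mean of 8.63 to 2.65, so the luminal label was not borne out by this marker in *HIST1H1A* clones. The part of this shift in the results below was not tested. *KLK3* was not analysed here, and neither was *HIST1H1A* itself. Of 34 leukocyte markers, 12 were measured, none passed in limma or had an unadjusted p under 0.05, and their mean signal was 3.30 to 3.64 in control clones and 3.36 to 3.47 in *HIST1H1A* clones.

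The ISRE is what most of these genes share in sequence, where a promoter was searched. RefSeq promoter windows, from 250 bases before to 50 bases after the annotated start on GRCh38.p14, were matched by symbol for 18 of the 26 genes. They were searched on both strands for GAAANNGAAA (TTTCNNTTTC on the other strand), the ISRE letters, where N is any base. The GAS letters TTCNNNGAA, which read the same on both strands, were searched as well. An ISRE match was found in 15 of the 18 genes (83.3%), against 3.78% of 3065 named genes with a window and 3.57% of all 35116 windows. Of the 18, 8 held at least 2 matches, against 0.259% of all windows. The set was listed as genes of the interferon response, so these shares follow in part from how it was chosen. A GAS match was found in 3 of the 18 (16.7%), *IFITM1*, *EPSTI1* and *GBP3*, against 7.66% of all windows. In *IFITM1* and *EPSTI1* the GAS match overlapped an ISRE match, and in *ISG15* and *TRIM21* the ISRE matches overlapped each other. *IFIT1B*, *IFITM5* and *IL6R* held neither motif, which says only that these letters are not in this window. A match is a description of the sequence and not a bound site.

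The stretches below run from 130 bases before to 10 bases after the start, 5′ to 3′ on the strand of the gene, with the ISRE letters in capitals. They are shown for the genes on which the results turn, with *IFIT1* and *IFITM3* beside their relatives and *IL6R* as the gene without a match.
IFITM1, chr11:313910-314049, plus strand: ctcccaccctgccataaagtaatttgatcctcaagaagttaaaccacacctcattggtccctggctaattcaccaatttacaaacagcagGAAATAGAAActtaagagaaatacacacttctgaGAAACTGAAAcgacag
IFIT5, chr10:89414438-89414577, plus strand: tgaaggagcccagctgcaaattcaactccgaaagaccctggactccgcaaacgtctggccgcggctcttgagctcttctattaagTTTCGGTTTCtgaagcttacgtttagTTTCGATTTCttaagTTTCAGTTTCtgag
ISG15, chr1:1013367-1013506, plus strand: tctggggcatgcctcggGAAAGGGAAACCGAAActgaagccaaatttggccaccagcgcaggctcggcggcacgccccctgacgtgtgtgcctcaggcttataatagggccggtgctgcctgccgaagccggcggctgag
IFIT1, chr10:89392493-89392632, plus strand: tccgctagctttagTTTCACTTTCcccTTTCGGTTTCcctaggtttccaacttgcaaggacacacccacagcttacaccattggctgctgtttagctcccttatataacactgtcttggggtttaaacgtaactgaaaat
IFITM3, chr11:320851-320990, minus strand: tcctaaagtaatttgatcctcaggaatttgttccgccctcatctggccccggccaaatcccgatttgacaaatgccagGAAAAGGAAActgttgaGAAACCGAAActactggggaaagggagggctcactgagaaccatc
IL6R, chr1:154405213-154405352, plus strand: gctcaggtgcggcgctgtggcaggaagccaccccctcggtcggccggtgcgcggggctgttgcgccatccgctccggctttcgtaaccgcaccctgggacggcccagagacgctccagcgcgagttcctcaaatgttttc

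**Figure D1:**
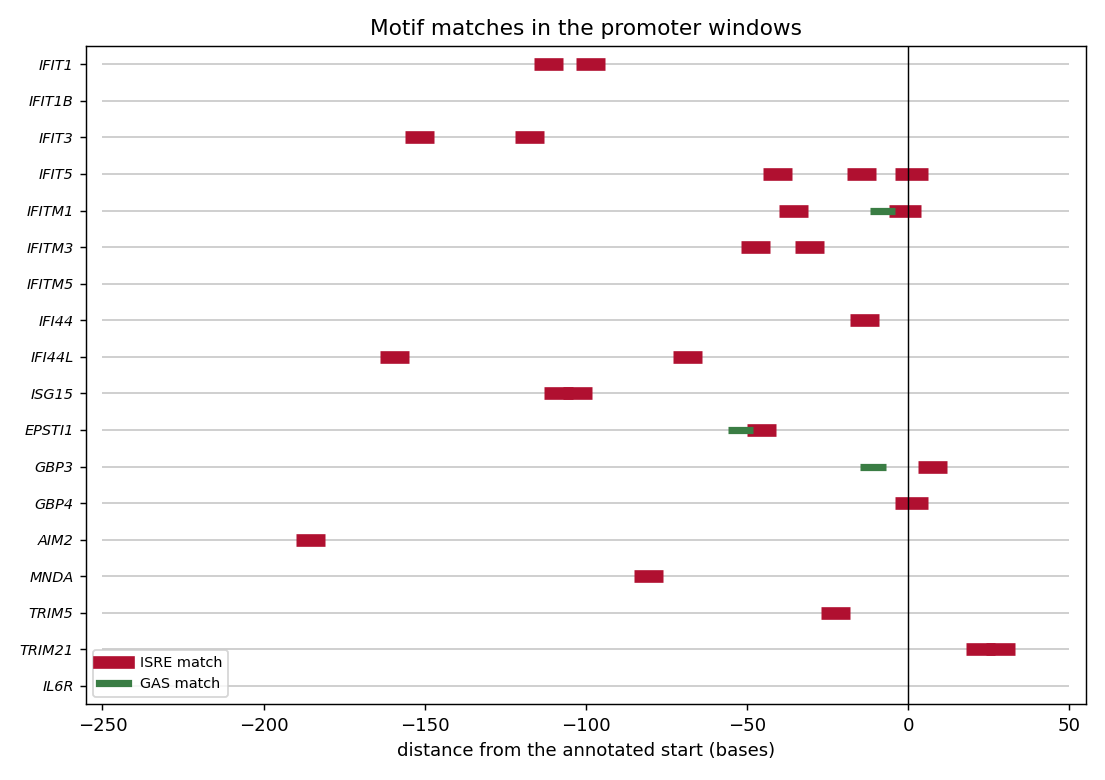
Positions of ISRE matches (red) and GAS matches (green) in the promoter windows of the 18 genes with a window, in bases from the annotated start, with 1 grey line per gene. *IFIT5* held 3 ISRE matches and *IL6R* none. For a gene with more than 1 window, the window with most ISRE matches is drawn.

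In *HIST1H1A* clones, 2 genes of the set changed. *IFITM1* rose 2.93-fold and *IL6R* was 4.16-fold lower, and the other 24 did not pass the test. This is 2 of 26 (7.69%) at an adjusted p under 0.05, where limma, adjusting by Benjamini and Hochberg across the 16377 clusters, called 5.79% of clusters and 12.5% of named genes, so the share among the 26 was not above that of named genes. Both also had a fold over 2, which 3.77% of all clusters and 8.47% of named genes had together with that p. By direction, 1 of the 26 rose, where 3.77% of all clusters and 8.72% of named genes did. Likewise 1 fell, where 2.02% of clusters and 3.83% of named genes did. The median log2 fold change over the 26 was -0.03, against -0.01 over all clusters and 0.03 over named genes, with 10 genes higher and 16 lower. At an unadjusted p under 0.05 there were 4 genes of 26 (15.4%), against 15.1% of all clusters and 25.9% of named genes.

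**Figure D2:**
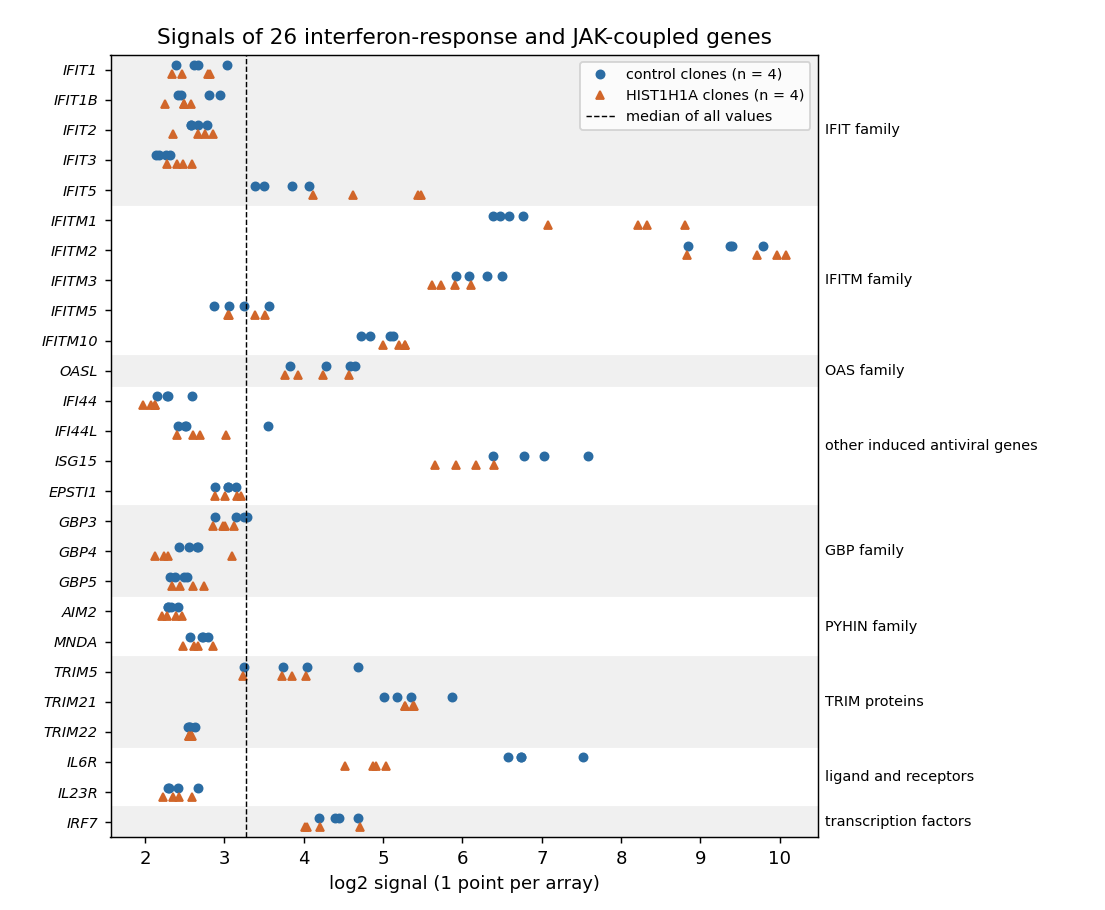
Log2 signal of each of the 26 genes on each of the 8 arrays, with control clones as circles and *HIST1H1A* clones as triangles. The dashed line is the median of all values, 3.27. Most genes of the IFIT, GBP and PYHIN families lie to its left in all clones, and *IFITM1* and *IL6R* separate the groups.

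Many of the genes were dim. For 15 genes the mean of both groups lay under 3.27, between 2.08 and 3.25, and none of them passed in limma, the lowest unadjusted p being 0.076. Of 4072 named genes, 1047 had both means under 3.27, a smaller share than in the set, and 5 of these passed (0.478%). Of the other 11 genes of the set, 2 passed (18.2%), against 506 of 3025 named genes (16.7%). Requiring both means to be low keeps out genes that changed strongly. Split by the mean over all 8 arrays instead, a choice made after seeing the data, the same 15 and 11 genes resulted, and 17 of 1113 dim named genes (1.53%) and 494 of the other 2959 (16.7%) passed. The table gives no background level for a cluster, and on arrays the fold change of a dim gene is compressed.

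*JAK1*, the kinase upstream of these genes and not itself in the set, was between 4.01 and 4.64 in control clones and between 8.68 and 9.39 in *HIST1H1A* clones. Of the other kinases and STAT factors listed, none was analysed here. *IRF9*, the DNA-binding part of ISGF3, was at 4.76, 4.44, 3.80 and 4.26 in control clones 3, 4, 8 and 9 and at 4.43, 4.99, 4.14 and 4.31 in *HIST1H1A* clones 2, 8, 9 and 10. The groups overlapped, with a log2 fold change of 0.15 and a 95% interval from -0.41 to 0.71 (adjusted p = 0.87 from limma). *IRF7*, the factor that amplifies interferon production and is itself an interferon target, was at 4.69, 4.39, 4.20 and 4.44 in control clones and 4.02, 4.71, 4.04 and 4.20 in *HIST1H1A* clones. It overlapped as well, and its log2 fold change of -0.18 did not pass (95% interval -0.60 to 0.23, adjusted p = 0.77 from limma).

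Among the receptors, *IL6R*, the ligand-binding chain of the interleukin-6 receptor, which signals through JAK1 by way of its partner gp130, had the largest change of the 26 genes. Its signal was 6.74, 6.58, 6.73 and 7.52 in control clones 3, 4, 8 and 9. It was 5.04, 4.92, 4.52 and 4.88 in *HIST1H1A* clones 2, 8, 9 and 10. Every control clone lay above every *HIST1H1A* clone by a wide margin, and control clone 9 was the highest. The means were 6.89 ± 0.43 (SD, n = 4) and 4.84 ± 0.22 (SD, n = 4), so that the difference was -2.06 on the log2 scale with a standard error of 0.22 (limma, adjusted p = 0.00091). Without control clone 9 the log2 fold change was -1.85, and the call held in 16 other settings that kept at least 7 arrays but was lost in limma's test against a fold of 2. *IL23R*, a cytokine receptor chain of lymphoid cells, was between 2.22 and 2.67 on all 8 arrays, with a log2 fold change of -0.02.

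The IFITM proteins sit in membranes and restrict the entry of enveloped viruses. All 5 measured members of this family lie on chromosome 11, and they did not move together. *IFITM1* was at 6.47, 6.59, 6.76 and 6.39 in control clones 3, 4, 8 and 9 and at 7.07, 8.80, 8.33 and 8.21 in *HIST1H1A* clones 2, 8, 9 and 10. The groups did not overlap, but clone 2 lay closer to the control clones than to the other *HIST1H1A* clones. The means were 6.55 ± 0.16 (SD, n = 4) and 8.10 ± 0.73 (SD, n = 4), so that the difference was 1.55 with a standard error of 0.33 (limma, adjusted p = 0.026). In 9 of the same 16 settings, and in the test against a fold of 2, *IFITM1* no longer passed, and its adjusted p over the 16 ran from 0.0014 to 0.11. Leaving out any of the arrays except that of *HIST1H1A* clone 2 ended it, and without clone 2 the log2 fold change was 1.90 (adjusted p = 0.0014 from limma).

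*IFITM2*, its close relative, was at 9.37, 9.78, 9.40 and 8.84 in control clones and 8.82, 10.07, 9.97 and 9.71 in *HIST1H1A* clones. The groups overlapped, and clone 2 was again the lowest of its group (log2 fold change 0.29, 95% interval -0.39 to 0.98, adjusted p = 0.78 from limma). *IFITM3* was at 5.92, 6.09, 6.31 and 6.50 in control clones and 6.11, 5.73, 5.90 and 5.62 in *HIST1H1A* clones, a log2 fold change of -0.36 in the other direction (95% interval -0.74 to 0.02, adjusted p = 0.36 from limma). Here clone 2 was the highest of its group. These 3 genes are relatives, and neither the likeness of their sequences nor binding of their probes to each other's RNA was checked. *IFITM10* had a log2 fold change of 0.25 and *IFITM5*, a gene of bone-forming cells, 0.07, and neither passed.

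IFIT proteins bind foreign RNA and block its translation. Their genes lie side by side on chromosome 10, and *IFIT5* stood apart from the others. It was at 4.07, 3.39, 3.50 and 3.86 in control clones 3, 4, 8 and 9 and at 5.44, 4.12, 4.63 and 5.48 in *HIST1H1A* clones 2, 8, 9 and 10. The groups did not overlap, although *HIST1H1A* clone 8 and control clone 3 nearly met. The means were 3.70 ± 0.32 (SD, n = 4) and 4.92 ± 0.66 (SD, n = 4), so that the difference was 1.21 with a standard error of 0.32 and a 95% interval from 0.49 to 1.94. It missed the threshold (limma, adjusted p = 0.069). In 4 of those 16 settings it did pass, at an adjusted p that ran from 0.021 to 0.19 over all of them. The classical interferon targets *IFIT1*, *IFIT2* and *IFIT3*, which also hold tandem ISRE letters where a window was matched, were between 2.14 and 3.03 on every array. Their log2 fold changes were -0.07, 0.01 and 0.22, with 95% intervals of -0.47 to 0.32, -0.30 to 0.32 and -0.04 to 0.47. *IFIT1B* was at -0.20.

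*ISG15*, which encodes a ubiquitin-like protein that is attached to other proteins after interferon, was at 7.58, 6.77, 7.03 and 6.38 in control clones 3, 4, 8 and 9 and 5.65, 6.40, 6.17 and 5.91 in *HIST1H1A* clones 2, 8, 9 and 10. The groups overlapped only between control clone 9 and *HIST1H1A* clone 8. The means were 6.94 ± 0.50 (SD, n = 4) and 6.03 ± 0.32 (SD, n = 4), so that the difference was -0.91 with a standard error of 0.27 and a 95% interval from -1.51 to -0.30. This did not pass (adjusted p = 0.10 from limma), and it passed in 2 of the 16 settings, of which leaving out control clone 9 was one (log2 fold change -1.09, adjusted p = 0.041 from limma). Its direction was opposite to that of *IFITM1*.

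The remaining antiviral genes gave small differences. *OASL*, a relative of the synthetases that activate RNase L, had a log2 fold change of -0.21 (95% interval -0.74 to 0.33). *IFI44* was at 2.29, 2.15, 2.27 and 2.59 in control clones and 1.97, 2.13, 2.07 and 2.13 in *HIST1H1A* clones. These did not overlap, and the log2 fold change was -0.25 at the dimmest signals of the set (adjusted p = 0.42 from limma). *IFI44L*, its neighbour on chromosome 1, was between 2.41 and 3.02 on 7 arrays and at 3.55 in control clone 9. *EPSTI1* was between 2.88 and 3.21 on all arrays. In all, the groups did not overlap in 4 of the 26 genes (15.4%), *IFIT5*, *IFITM1*, *IFI44* and *IL6R*, against 11.1% of all clusters and 20.1% of named genes.

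Guanylate-binding proteins are GTPases that attack intracellular pathogens and are typical targets of interferon gamma. *GBP3*, *GBP4* and *GBP5* had log2 fold changes of -0.15, -0.13 and 0.10, and all of their group means lay between 2.43 and 3.14. The DNA sensor *AIM2* and its myeloid relative *MNDA* were at 0.01 and -0.04. Of the TRIM proteins, *TRIM5* and *TRIM22*, which restrict retroviruses, had log2 fold changes of -0.22 and 0.00. *TRIM21*, a cytosolic antibody receptor, was at -0.03. The control clones differed most for *TRIM5* among these, with an SD of 0.60, from 3.24 in clone 3 to 4.69 in clone 9, and least for *TRIM22*, with an SD of 0.04.

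**Figure D3:**
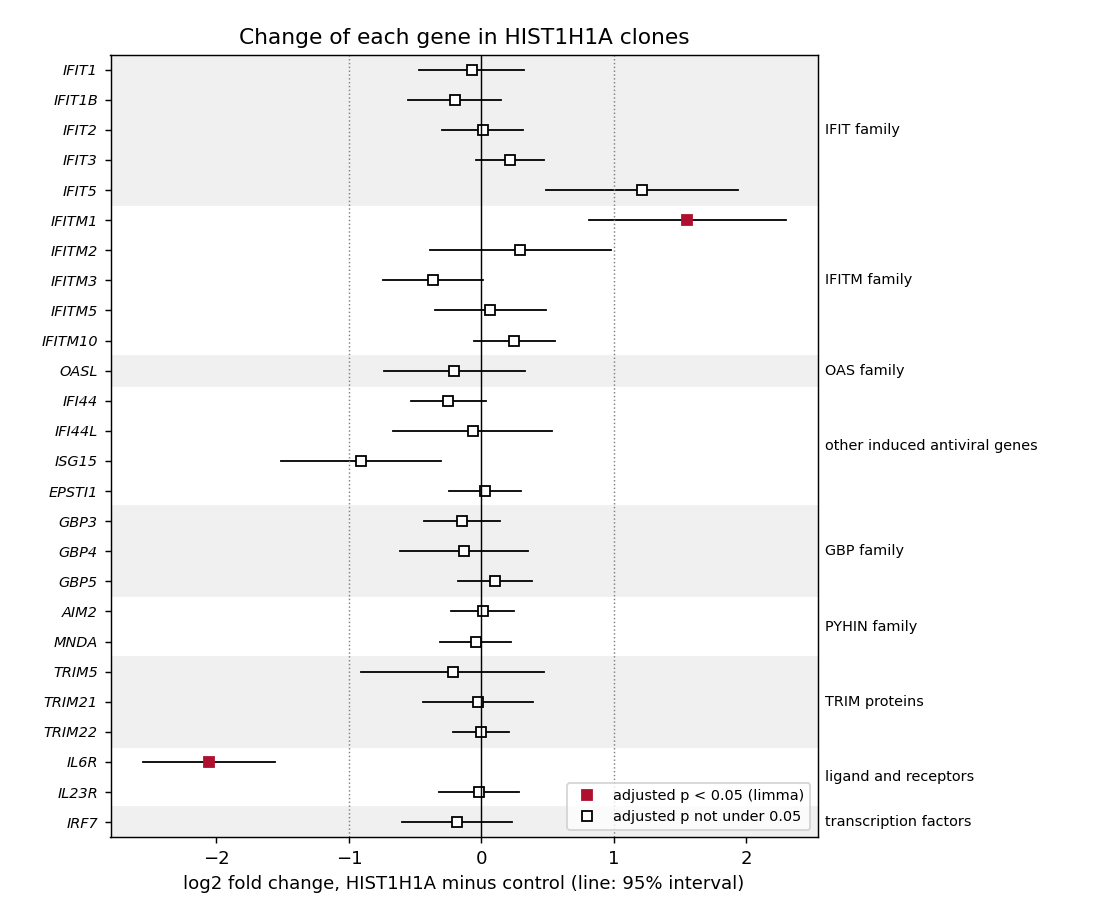
Log2 fold change of each of the 26 genes, *HIST1H1A* minus control clones (n = 4 each), with its 95% interval from limma. Filled squares passed at an adjusted p under 0.05, and dotted lines mark a fold of 2. The intervals of *IFITM1* and *IL6R* lie on opposite sides of 0.

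A missed threshold does not show that a gene stayed the same, and the intervals bound the difference in signal. Of the 24 genes that did not pass, 22 had a 95% interval within a fold of 2 in either direction, the exceptions being *IFIT5* and *ISG15*. These 22 include the 15 dim genes, whose intervals ran from -0.67 to 0.54. As the fold change of a dim gene is compressed, these intervals do not bound the change in its RNA. At the median, control clones varied less in the 26 genes than over all clusters, and *HIST1H1A* clones slightly more. The median SD was 0.199 in control and 0.217 in *HIST1H1A* clones for the 26 genes, against 0.267 and 0.207 over all clusters. No clone was high in the whole set. Control clone 3 was the highest control for 12 of the 26 genes and control clone 8 for 1, while *HIST1H1A* clone 2 was the lowest of its group for 11. The mean over the 26 genes was 3.84 to 3.97 in control clones and 3.76 to 3.95 in *HIST1H1A* clones, which overlap.

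Other genes of the pathway came from 8 lists with 216 entries, of which 26 were measured. Of these, 3 rose, none fell and 23 did not pass in limma, 2 of them with an unadjusted p under 0.05. Of named genes 8.72% rose and 3.83% fell, and of all clusters 3.77% and 2.02%. An unadjusted p under 0.05 was reached by 5 of the 26 pathway genes, against 25.9% of named genes. The 26 pathway genes had a median log2 fold change of 0.01. Besides *JAK1* the rises were *LEPR* and *IRF2BP2*. *LEPR*, the leptin receptor, which lies near *JAK1* on chromosome 1, was between 3.75 and 4.10 in control clones and between 4.47 and 5.00 in *HIST1H1A* clones, and rose 1.79-fold (limma, adjusted p = 0.015). *IRF2BP2*, a corepressor that partners the factor IRF2, was between 5.20 and 6.06 in control and between 6.92 and 7.14 in *HIST1H1A* clones in its brighter cluster, and rose 2.99-fold there (limma, adjusted p = 0.0020). The dimmer cluster had a log2 fold change of -0.24 and did not pass. All 7 measured cytokine ligands, *IL10*, *IL18*, *IL19*, *IL20*, *IL22*, *IL24* and *IL26*, were dim, with group means between 2.18 and 3.00 and log2 fold changes between -0.11 and 0.20. The feedback inhibitors *SOCS2* and *SOCS4* were at 0.00 and -0.24.

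*UBE2L6*, the conjugating enzyme that carries ISG15 to its substrates, was singled out after its values were seen, because *HIST1H1A* clone 2 was the lowest of its group as in *IFITM1*. It was at 3.88, 3.79, 3.85 and 3.82 in control clones 3, 4, 8 and 9 and at 3.63, 5.14, 4.64 and 4.77 in *HIST1H1A* clones 2, 8, 9 and 10. Clones 8, 9 and 10 of the *HIST1H1A* group lay above all control clones, and clone 2 lay below them. The log2 fold change was 0.71 (95% interval 0.06 to 1.36, adjusted p = 0.27 from limma), and *UBE2L6* passed when clone 2 was left out. In the same list, *NAMPT* went the other way, with *HIST1H1A* clone 2 the highest of its group at 7.31. Its log2 fold change was -0.89 (95% interval -2.29 to 0.51). *NAMPT* is annotated to chromosome 7, but the number of its cluster falls among those of chromosome 10 genes. Which locus that cluster reads was not checked. *CH25H*, a dim gene with clone 2 the lowest of its group, had a log2 fold change of 0.04. Neither passed. *JAK1* was at 9.14 in clone 2, within the range of 8.68 to 9.39 of the *HIST1H1A* clones. Its relation to these genes was not tested. In the sensing list, *TBK1*, a kinase that activates IRF3, was at 5.08, 5.21, 4.97 and 7.25 in control clones 3, 4, 8 and 9 and at 4.98, 4.20, 4.39 and 4.83 in *HIST1H1A* clones 2, 8, 9 and 10. The groups overlapped and control clone 9 stood far above the rest, with a log2 fold change of -1.02 (95% interval -2.13 to 0.08, adjusted p = 0.39 from limma). *TLR5*, the cell-surface receptor for bacterial flagellin, was at -0.35 and *UNC93B1*, which escorts nucleic-acid sensors to endosomes, at -0.10, and neither passed. In antigen presentation, *CD1D*, which presents lipids, was between 3.29 and 3.47 in control clones and between 3.56 and 4.04 in *HIST1H1A* clones without overlap (log2 fold change 0.48, adjusted p = 0.075 from limma). The other 5 genes of that list lay between -0.07 and 0.03.

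**Figure D4:**
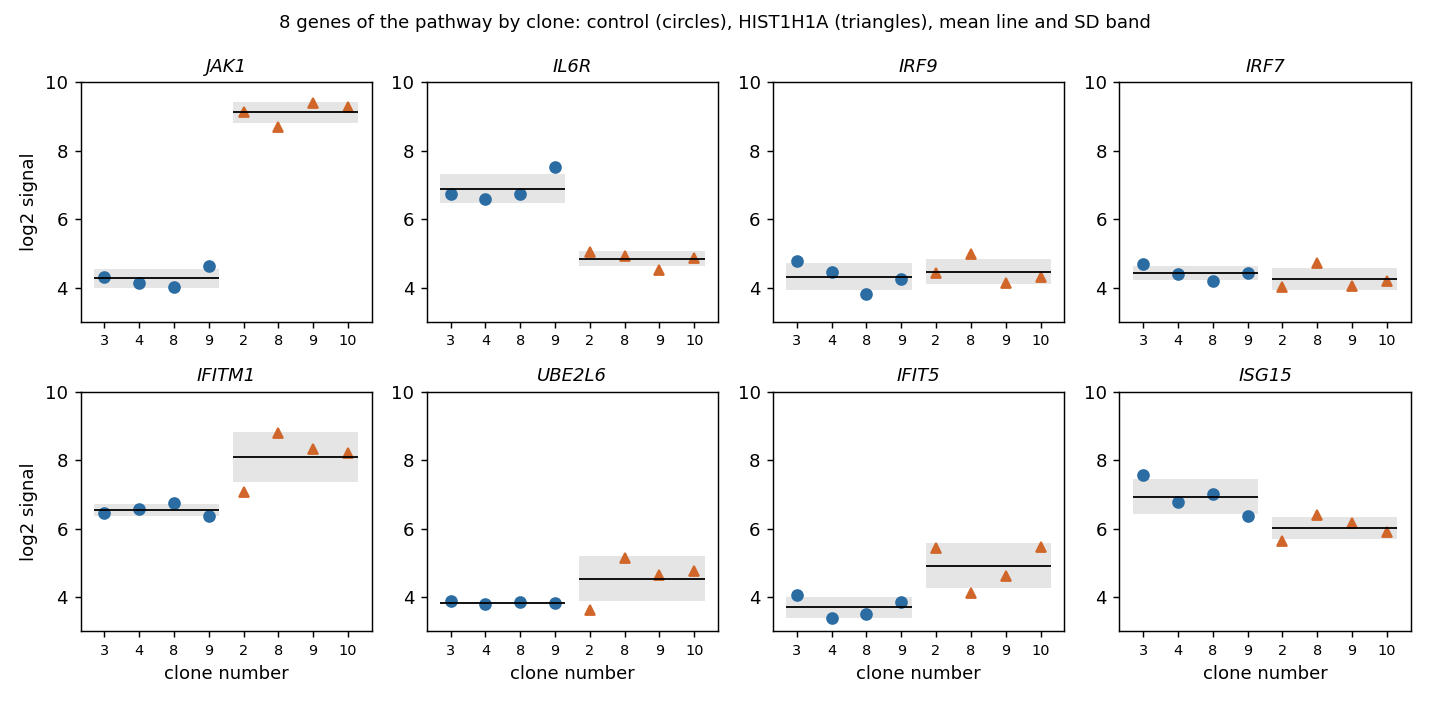
Log2 signal of 8 genes in each clone, with control clones as circles, *HIST1H1A* clones as triangles, a line at each group's mean (n = 4) and a band of 1 SD. *JAK1* was high in all 4 *HIST1H1A* clones. Within that group, clone 2 was the lowest for *IFITM1*, *IRF7*, *ISG15* and *UBE2L6*. It was the highest for *IL6R* and in between for *JAK1*, *IRF9* and *IFIT5*. *UBE2L6* was chosen after its values were seen.

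On the array as a whole, genes with and without the ISRE letters passed at about the same rate. Of 3065 named genes with a promoter window, 116 held an ISRE match, and 13 of these rose and 2 fell (12.9%). Among the 2949 without a match, 270 rose and 120 fell (13.2%). By direction, 11.2% rose and 1.72% fell with a match, against 9.16% and 4.07% without. The median log2 fold change was 0.01 with a match and 0.04 without. With the set left out, 101 named genes held a match, of which 12 rose and 2 fell (13.9%). Within the set, 1 of the 15 genes with a match rose (*IFITM1*) and none fell, and the median was -0.07. These counts describe the arrays and were not tested.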

How the data were processed

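Total RNA of 4 control and 4 *HIST1H1A* clones was measured with 1 array each. Values are log2 signals of transcript clusters that the authors deposited after processing in Partek. For its summarization and normalization, details were not given in the sources used here, and the values were taken as they stood. The labels give a clone number for each array, and the paper calls the clones clonal isolates. The p-values test the group difference against the spread between arrays, which holds clone and measurement differences together. The number of arrays limits the precision. Symbols came from the platform annotation for 4247 of 16377 clusters (1 symbol each), and 12130 carried none here. All clusters entered limma 3.58.1 (lmFit, eBayes) in R 4.3.3 without covariates, and p-values were adjusted over all of them. A gene was said to rise or fall at an adjusted p under 0.05. For genes with more than 1 cluster the brightest was taken, and the strand read was not checked. All measured genes of the set were named. From the other pathway lists, the genes that passed were named, and so were many, but not all, that did not pass. Of these, *UBE2L6* was chosen after its values were seen. Members and lists were chosen with earlier results of these data known. The methods' t-test is Student's, which the paper's legends name for replicate experiments and not for arrays. Other settings were 2 normalizations, trend and robust limma, array weights, bright or named clusters only, a fold of 2, the mean over clusters, clones 8 and 9 alone and each array left out. Promoter windows are from RefSeq.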

Additional observations from a re-analysis of the deposited data

Results flagged for a closer look

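In 3 of 104 groups of 4 clones tested over 52 genes, 1 clone stood apart from the other 3, where chance alone gives about 5.2. In all 3 it was control clone 9. *IFI44L* was at 3.55 there, with the nearest other control clone at 2.52. *SOCS4*, a feedback inhibitor of cytokine signaling, was at 6.97 against 5.15. *TBK1*, the kinase that activates IRF3 after nucleic acid sensing, was at 7.25 against 5.21. All values are log2 signals. Without control clone 9, 2 of the 26 genes passed as with it, but these were *ISG15* and *IL6R* in place of *IFITM1* and *IL6R*.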

How the results depend on the processing

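The 2 genes of the set that passed became 1 with the methods' t-test and with quantile normalization (*IFITM1* lost in both), 4 over named clusters only (*IFIT5* and *ISG15* added), 0 in limma's test against a fold of 2 (1 at an unadjusted p under 0.05), and 1 to 2 on leaving out 1 array. Of these, the *IL6R* call was lost only against a fold of 2. The set's median log2 fold change was -0.18 over the 11 genes in bright clusters. The pathway lists gave 3 to 5 genes on leaving out 1 array, with 5 (*UBE2L6* and *CD1D* added) without *HIST1H1A* clone 2. Of 16377 clusters, 618 passed with a fold over 2. These became 397 with the methods' t-test, 948 with no fold minimum, 118 against a fold of 2 and, leaving out 1 array, 480 to 672. Tested alone, the 4247 named clusters gave 388, a smaller count but a larger share. Clone numbers 8 and 9 occur in both groups only as numbers, with correlations of deviations of 0.07 and -0.22. In these 4 arrays the replicate block gave 0 clusters, 0 genes of the set and 0 of the pathway lists in limma (unadjusted p under 0.05 for 2103, 5 and 6). Without it these were 75, 0 and 1 (1999, 5 and 6), and the set's median was 0.047 in both. The block left fewer degrees of freedom. Neither *IFITM1* nor *IL6R* changed direction in any setting.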
